A study of Homo sapiens with 18 samples.

Results

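The TRAF adaptors and the cIAP ubiquitin ligases were followed as 8 genes, TRAF1, TRAF2, TRAF3, TRAF4, TRAF5, TRAF6, BIRC2 (cIAP1) and BIRC3 (cIAP2), taken by symbol from a table of 56609 genes. All 8 were among the 31872 genes tested, whose counts over all libraries together reached 10 or more. RNA sequencing was performed on HG3, MEC2 and PCL12, established EBV-positive cell lines derived from chronic lymphocytic leukemia (CLL), a malignancy of mature B cells. Each line was incubated for 4 h with ODN-2006, a class B CpG oligonucleotide that is an agonist of human TLR9, at 2.5 μg/ml, or left unstimulated, with 3 replicates of each state and 18 libraries in all. No genetic change was introduced in any group, so that each group is one line in one state, and one line stands for one leukemia. The labels do not say whether replicates of a group came from separate cultures, so that the spread behind the P values may be technical. For the CpG effects every member was given a spread shared over genes, and not that of its own replicates.

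TRAF proteins couple receptors of the TNF and Toll-like families, which lack enzymatic activity, to ubiquitin ligases and kinases upstream of NF-kB. TRAF2 and TRAF3 bring BIRC2 or BIRC3 to the kinase NIK (MAP3K14) and keep NIK low in resting B cells, which restrains the non-canonical NF-kB pathway, while TRAF6 acts below MYD88 and the IRAK kinases on the route used by TLR9. TRAF1 and BIRC3 are textbook target genes of NF-kB in B cells, and loss of TRAF3 or BIRC3 is known in B-cell malignancies.

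The genes lie on 5 chromosomes of GRCh38, by the GENCODE 44 annotation. TRAF1 (chr9:120902393-120929173, minus strand) and TRAF2 (chr9:136881912-136926607, plus strand) share chromosome 9. TRAF3 (chr14:102777449-102911500, plus strand), TRAF4 (chr17:28744011-28750956, plus strand) and TRAF5 (chr1:211326615-211374946, plus strand) stand alone, and TRAF6 (chr11:36483769-36510272, minus strand) is on chromosome 11 together with the cIAP genes. BIRC3 (chr11:102317484-102339403, plus strand) is directly upstream of BIRC2 (chr11:102347211-102378670, plus strand), with 7808 bases from the end of the former to the start of the latter.

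The promoters of BIRC3 and TRAF3 are shown because, among the members, they hold the kappa B consensus, the sequence element bound by NF-kB. All 8 members were found in the RefSeq promoter windows of GRCh38.p14, which run from 250 bases before a transcription start to 50 bases after it. The consensus of 10 bases was searched on both strands as the only motif, and 5.91% of all 35116 windows held at least 1 match. Of the 13 windows of the members, 2 did, the single window of BIRC3 with 2 matches and the single window of TRAF3 with 1 match. The stretches below run 5′ to 3′ on the plus strand, on which both genes lie, and capitals mark the matches. The BIRC3 stretch (chr11:102317269-102317373) ends 111 bases before the start site, and the TRAF3 stretch (chr14:102777364-102777448) ends at the last base before it.
BIRC3: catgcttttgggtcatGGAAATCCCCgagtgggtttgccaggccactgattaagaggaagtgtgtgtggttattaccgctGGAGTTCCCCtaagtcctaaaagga
TRAF3: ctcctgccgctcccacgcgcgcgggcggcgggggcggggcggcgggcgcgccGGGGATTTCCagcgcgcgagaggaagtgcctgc
Both BIRC3 matches read on the opposite strand and begin 199 and 135 bases before the start site, and the TRAF3 match reads on the strand of the gene and begins 33 bases before it. The first BIRC3 match is the reverse complement of the TRAF3 match. A match is a description of the letters and not a binding site, and the windows of TRAF1, TRAF2, TRAF4, TRAF5, TRAF6 and BIRC2 lack these letters only within the bases searched.

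Libraries held 20382943 to 67308932 counts, and levels are given as CPM (counts scaled to the library total) after TMM scaling, a correction for library composition. No level is compared between genes, because the labels name a 3′-tag library kit and the length of transcript counted is not known. B-cell markers were detected in full, 8 of 8 in each line at a summed 2701 to 5184 CPM. T-cell markers were detected at 4 of 6 in HG3 (summed 83.0 to 129 CPM), 4 of 6 in MEC2 (35.1 to 79.2 CPM) and 3 of 6 in PCL12 (58.8 to 113 CPM), with CD3D at 0 in HG3 and MEC2. NK-cell markers were detected at 4 of 4 in each line (1.04 to 10.9 CPM), and myeloid markers at 5 of 5 in HG3 and 4 of 5 in MEC2 and PCL12 (0.902 to 8.33 CPM), with S100A8 at 0 in MEC2 and PCL12. The part of other cell types in the results was not tested. The mitochondrial share of counts was 20.2% for HG3 unstimulated replicate 2 and 19.7% for MEC2 CpG replicate 2, and between 2.82% and 9.28% for the rest. PCL12 replicates 2 and 3 stood apart from replicate 1. Over 45 genes at 20 CPM or more in MEC2 and at no more than 10% of that level in PCL12 replicate 1, the median level in these 4 libraries was 29.0% to 31.3% of that in MEC2. The low level in replicate 1 is fixed by this choice of genes, and the origin of the transcripts was not tested. TLR9 itself had 0 to 10 counts in every library, at most 0.203 CPM, which is too few for a fold change.

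To find which of the 8 genes responded to CpG, stimulated libraries were compared with the unstimulated library of the same replicate number. A gene is said to pass where its P, adjusted over all tested genes, was below 0.05. In MEC2, TRAF4 rose 2.02-fold and TRAF1 1.96-fold. TRAF3 and BIRC3 were above their unstimulated range in the same line without passing, and TRAF2, TRAF5, TRAF6 and BIRC2 had intervals that included 0. The fit was edgeR's quasi-likelihood test with a term for each replicate pair.

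TRAF4, a family member first known from epithelial tumors and induced by NF-kB in some cells, had 216, 184 and 157 CPM in the unstimulated MEC2 libraries. After CpG it had 442, 515 and 227 CPM, so that the lowest stimulated library was above the highest unstimulated one. The log2 fold change was 1.02 (SE 0.21), or 2.02-fold, with an adjusted p of 0.00145 in edgeR. The rise was present in each of the 3 pairs, with log2 ratios of 1.03, 1.48 and 0.53.

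TRAF1, which lacks the RING domain of the other TRAFs and binds TRAF2 and the cIAPs, had 385, 347 and 320.0 CPM in unstimulated MEC2 and 817, 879.8 and 450.0 CPM after CpG. The groups did not overlap. The log2 fold change was 0.97 (SE 0.21), or 1.96-fold, with an edgeR adjusted p of 0.00345, and the pair ratios were 1.09, 1.34 and 0.49 on the log2 scale. These 2 genes were the only members called in MEC2, 2 of 8, where 0.295% of all tested genes were called higher and 0.0377% lower. TRAF4 alone also met the rule used in the study, a nominal P below 0.01 with a log2 fold change of at least 1, which 0.383% of tested genes met as higher. The P here came from edgeR, where the study used limma, so that this share is not the study's own.

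BIRC3, the inducible cIAP, had 374, 269 and 333 CPM in unstimulated MEC2 and 523, 822 and 392 CPM with CpG. These groups did not overlap either, but the pair ratios were uneven, 0.48, 1.61 and 0.24 on the log2 scale. The fitted log2 fold change of 0.77 (SE 0.21) did not pass (edgeR adjusted p = 0.0752). TRAF3, the adaptor that holds the NIK-degrading complex together, had 238, 204 and 198 CPM unstimulated and 329, 389 and 241 CPM stimulated. Its log2 fold change of 0.56 (SE 0.21) did not pass either (edgeR adjusted p = 0.626), although all 3 stimulated libraries were above all 3 unstimulated ones. Such a separation upwards was found in 4 of 8 members in MEC2 and in 2.52% of all tested genes.

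BIRC2, the cIAP described as constitutive, was at 31.0, 19.8 and 19.9 CPM in unstimulated MEC2 and at 33.1, 33.0 and 22.7 CPM with CpG, with a log2 fold change of 0.34 and an interval of -0.08 to 0.76, and between 0.14 (without unstimulated replicate 2) and 0.47 with 1 library left out. TRAF2, the direct cIAP-binding adaptor, changed by 0.08 (interval -0.32 to 0.49) and TRAF5, its close relative at CD40 and related receptors, by 0.00 (interval -0.43 to 0.42). TRAF6 had a log2 fold change of -0.05 (interval -0.56 to 0.45). Intervals of this width leave room for changes of 0.32 log2 units in either direction for TRAF2, TRAF5 and TRAF6.

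The MEC2 calls were lost in several other fits. With all 31872 genes the fit gave every member the common spread (infinite prior degrees of freedom), and with the 20733 genes kept by filterByExpr (prior degrees of freedom 9.1) the adjusted p became 0.190 for TRAF4 and 0.220 for TRAF1, at log2 fold changes of 1.00 and 0.96. Without the pairing both adjusted p values were 1, at log2 fold changes of 1.09 and 1.03. In a paired fit, leaving out either library of a pair takes that pair out of the CpG effect. Counts of such fits, here and below, therefore hold each pair under both of its libraries and are not all separate checks. For TRAF4, leaving out CpG replicate 1 gave an adjusted p of 0.0703, CpG replicate 2 (the library rich in mitochondrial counts) 0.0679, unstimulated replicate 1 0.0890 and unstimulated replicate 2 0.0719. The same omissions gave 0.170, 0.0507, 0.206 and 0.0536 for TRAF1, and the log2 fold changes over all omissions in MEC2 ran from 0.78 to 1.26 for TRAF4 and from 0.79 to 1.21 for TRAF1. BIRC3 fell to a log2 fold change of 0.37 without MEC2 CpG replicate 2 and to 0.36 without unstimulated replicate 2, and passed without CpG replicate 3 (edgeR adjusted p = 0.0390) and without unstimulated replicate 3 (0.0382).

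**Figure D1:**
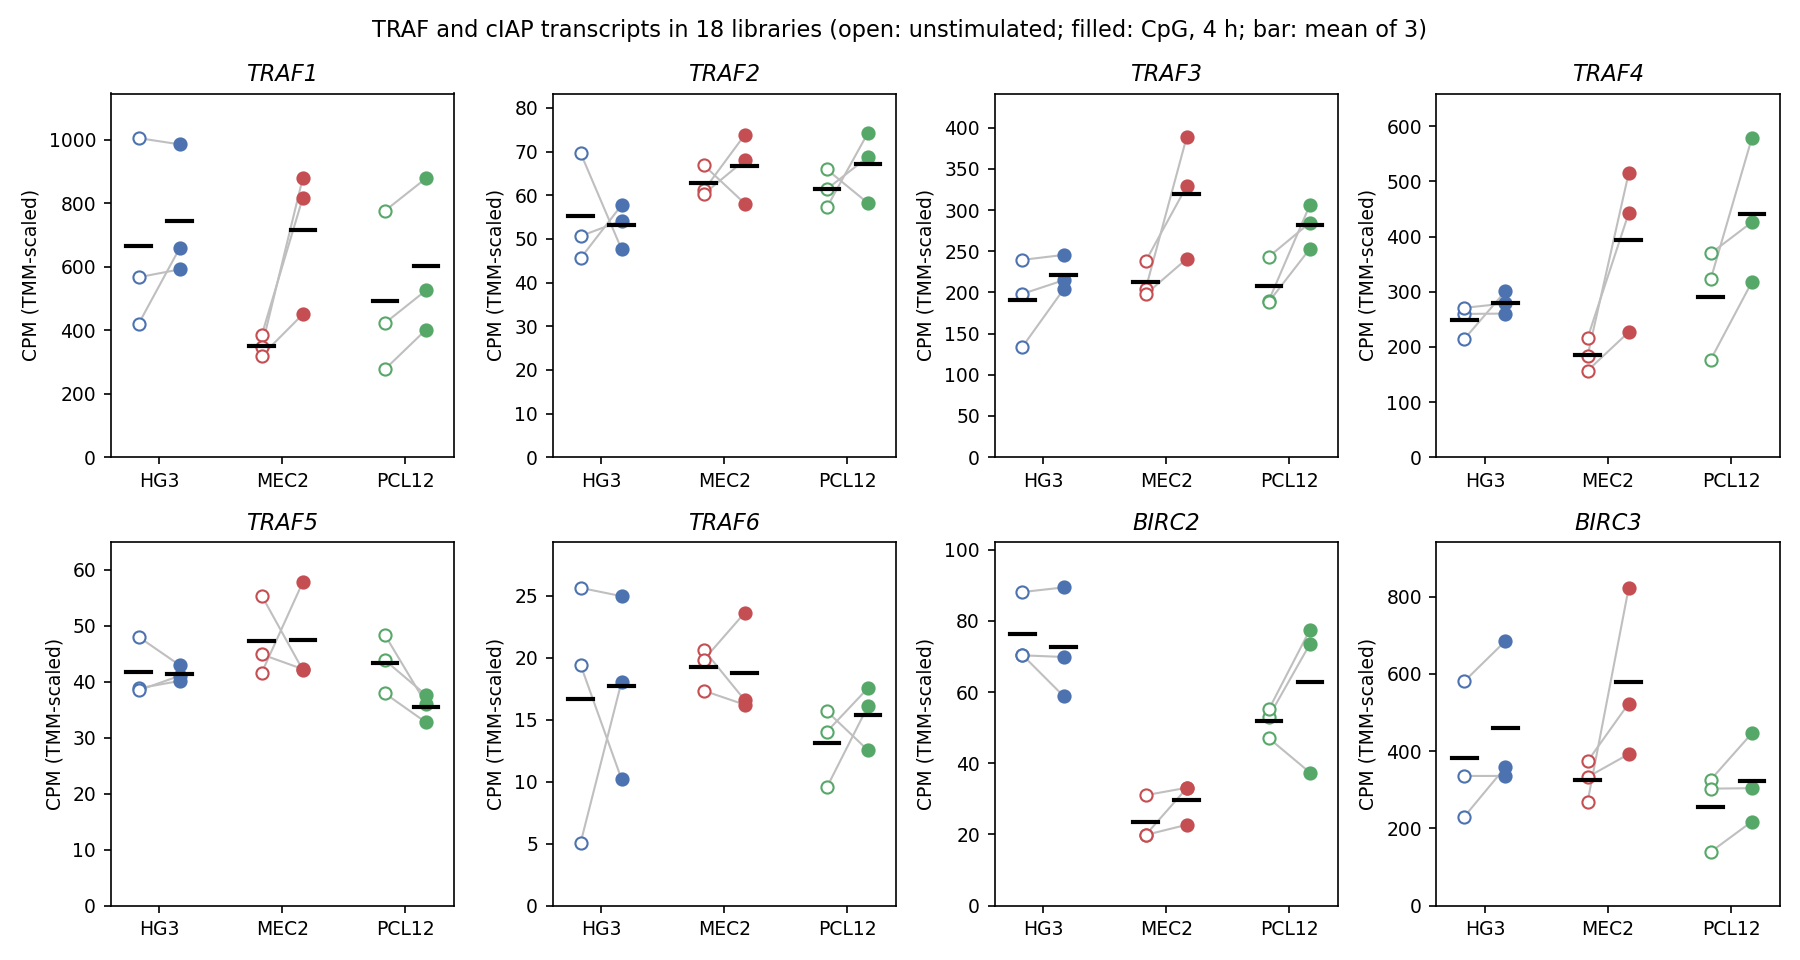
Level of each of the 8 genes in CPM (vertical axes from 0, TMM-scaled) in HG3, MEC2 and PCL12. Open circles are unstimulated libraries, filled circles CpG-stimulated libraries, grey lines join libraries of the same replicate number and black bars are means of 3. In MEC2 the stimulated libraries of TRAF1, TRAF3, TRAF4 and BIRC3 lie above the unstimulated ones, and BIRC2 in unstimulated cells is lowest in MEC2 and highest in HG3.

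In HG3, no member passed in edgeR, DESeq2 or limma-voom, and 0 of 8 had a nominal P below 0.05 in edgeR. Of all tested genes, 0.0628% were called higher and 0.0722% lower in HG3, and 3.59% had a nominal P below 0.05. TRAF1 was at 567, 419.7 and 1005 CPM unstimulated and at 591, 658 and 985 CPM with CpG, so that the replicates of one state spread more widely than the 2 states differed. BIRC3 behaved similarly, with 336, 231 and 581 CPM unstimulated and 336, 359 and 685 CPM stimulated. The fitted log2 fold changes of these genes were 0.23 (interval -0.19 to 0.64) for TRAF1 and 0.29 (interval -0.12 to 0.70) for BIRC3.

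TRAF4, which rose in MEC2, was at 214, 259.6 and 271 CPM in unstimulated HG3 and at 301, 260.3 and 279 CPM with CpG, a log2 fold change of 0.18 (interval -0.23 to 0.58) that became 0.023 without replicate 1 of either state. TRAF6, the adaptor on the TLR9 route, had 19.5, 5.06 and 25.7 CPM unstimulated and 10.2, 18.1 and 25.0 CPM stimulated. The value of 5.06 CPM stood in the HG3 library with 20.2% mitochondrial counts, unstimulated replicate 2. Leaving it out takes its CpG partner out of the paired estimate too, so that the part of that library alone cannot be told. The TRAF6 log2 fold change in HG3 was 0.24 with all libraries. It was -0.46 without this library and -0.48 without its partner, CpG replicate 2, and none of these passed. TRAF1 went to 0.04 and BIRC3 to 0.14 without the unstimulated library, and to 0.02 and 0.12 without its partner, on the log2 scale.

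In PCL12, again no member passed in edgeR, DESeq2 or limma-voom, against 0.0408% of tested genes called higher and 0.00628% lower, and 2 of 8, TRAF3 and TRAF4, had a nominal P below 0.05 in edgeR (1.69% of tested genes). TRAF4 was at 323, 369 and 177 CPM unstimulated and at 578, 426 and 317 CPM with CpG, higher in each pair by log2 ratios of 0.84, 0.21 and 0.84. The groups overlapped because of the spread between replicates, and the log2 fold change was 0.63 (SE 0.21; edgeR adjusted p = 0.887). Fitted on the 6 PCL12 libraries alone, with the pairing, the same log2 fold change of 0.63 passed (edgeR adjusted p = 0.00312). TRAF3 was at 190.2, 243 and 189 CPM unstimulated and at 306, 285 and 253 CPM stimulated, without overlap, a separation upwards shown by 2.53% of tested genes. Its log2 fold change was 0.45 (SE 0.21; edgeR adjusted p = 1).

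TRAF5 was the one member with all stimulated PCL12 libraries below all unstimulated ones, at 32.7, 37.6 and 36.1 CPM against 37.9, 43.9 and 48.4 CPM, a separation downwards shown by 2.02% of tested genes. The difference was small, with a log2 fold change of -0.28 (interval -0.71 to 0.14; edgeR adjusted p = 1). BIRC2 varied among the stimulated PCL12 libraries, at 73.5, 77.5 and 37.4 CPM, against 53.1, 55.1 and 47.0 CPM unstimulated. From PCL12 replicate 1 alone, the log2 fold changes were 0.84 for TRAF4, 0.69 for TRAF3, 0.64 for BIRC3, 0.32 for TRAF1, 0.47 for BIRC2, 0.17 for TRAF2, -0.21 for TRAF5 and 0.76 for TRAF6. None of these values from a single pair passed, with the spread taken from the other lines.

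Across the 9 pairs, TRAF3, TRAF4 and BIRC3 were higher with CpG in 9 of 9 and TRAF1 in 8 of 9. By comparison, 0.301% of tested genes were higher in 9 of 9 pairs and 1.69% in at least 8. The smallest log2 ratios were 0.00 for TRAF4 and BIRC3, both in HG3, and 0.04 for TRAF3, so that the count includes pairs with next to no difference. TRAF2 and BIRC2 were higher in 6 of 9 pairs, TRAF6 in 4 and TRAF5 in 3. The 9 pairs include PCL12 replicates 2 and 3, the libraries that held MEC2-high transcripts. Whether these pairs are independent of the MEC2 pairs was not tested.

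The mean effect over the 3 lines passed for 3 of 8 members, all higher, where 0.417% of tested genes were called higher and 0.138% lower. It was 0.61 (SE 0.12; adjusted p = 0.000351) for TRAF4, 0.51 (SE 0.12; adjusted p = 0.00850) for TRAF1 and 0.48 (SE 0.12; adjusted p = 0.0216) for BIRC3, on the log2 scale in edgeR. TRAF3, with 0.42 (SE 0.12), did not pass in edgeR (adjusted p = 0.0685) or in any of the 18 fits with 1 library left out (0.0607 to 0.691). Of 8 other settings it passed in DESeq2 alone (adjusted p = 0.00560), and the adjusted p was 0.127 with limma-voom, 0.255 with filterByExpr, 1.00 without the pairing and 0.337 without PCL12 replicates 2 and 3. The median over the members was 0.29 and that over all tested genes 0.05. TRAF2 (0.06), TRAF6 (0.14), BIRC2 (0.16) and TRAF5 (-0.10) had intervals that included 0.

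The 18 fits with 1 library left out cover 9 pairs, each left out by either of its libraries. The mean effect of TRAF4 passed with any single library left out, with adjusted p of at most 0.0323. Those of TRAF1 and BIRC3 each passed in 10 of 18 such fits, TRAF1 failing without replicate 1 of either MEC2 group (0.0796 and 0.0926) or without any 1 of the 6 PCL12 libraries (0.0537 to 0.104), and BIRC3 failing without HG3 replicate 3 (0.0676 and 0.0677), MEC2 replicate 2 (0.0993 and 0.114), PCL12 replicate 1 (0.363 and 0.382) or PCL12 replicate 2 (0.185 and 0.186) of either state. With filterByExpr the adjusted p was 0.0833 for TRAF4, 0.191 for TRAF1 and 0.376 for BIRC3, without the pairing it was 1.00 for each, with limma-voom it was 0.0155, 0.0243 and 0.306, and without PCL12 replicates 2 and 3 it was 0.0418, 0.458 and 0.204.

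**Figure D2:**
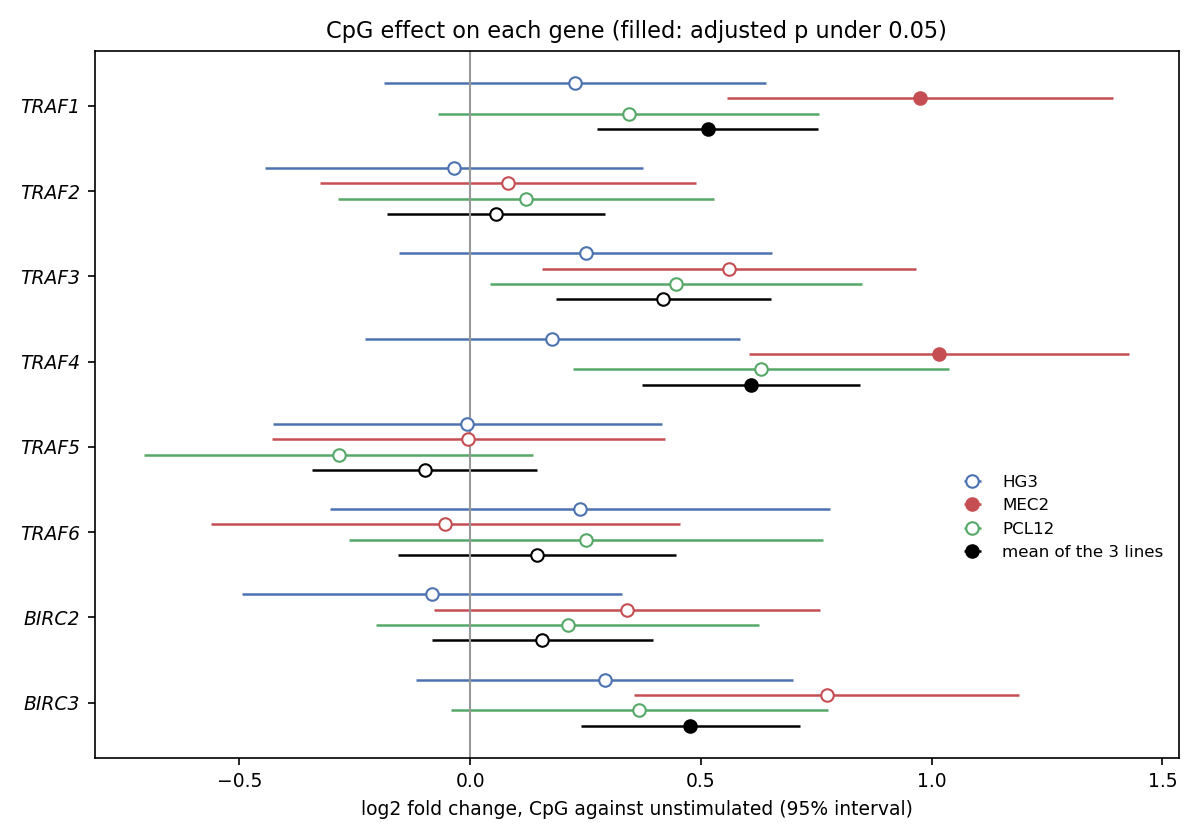
Log2 fold change of each gene with CpG (horizontal axis) in each line and as the mean of the 3 lines, with 95% intervals from the edgeR fit with replicate pairs. The intervals rest on a spread shared over genes, not on that of each gene's own replicates. Filled circles passed an adjusted p of 0.05, which TRAF1 and TRAF4 did in MEC2, and TRAF1, TRAF4 and BIRC3 as the mean of the lines.

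The responses in MEC2 and the other lines were then compared directly, since TRAF1 and TRAF4 passed in MEC2 and not in HG3 or PCL12. No member passed in any of the 3 comparisons of the CpG effect between lines in edgeR, DESeq2 or limma-voom. Between MEC2 and HG3, where 0.0879% of tested genes were called higher and 0.0533% lower, 2 of 8 members had a nominal edgeR P below 0.05, as did 3.53% of tested genes. The CpG effect on TRAF4 was larger in MEC2 by 0.84 on the log2 scale (SE 0.29, interval 0.26 to 1.41; edgeR adjusted p = 0.608), and that on TRAF1 by 0.75 (SE 0.30, interval 0.16 to 1.34; edgeR adjusted p = 0.992). BIRC3 differed by 0.48 (interval -0.10 to 1.06) and TRAF3 by 0.31 (interval -0.26 to 0.88). With 1 library left out, these differences ran from 0.056 to 0.76 for BIRC3 and from 0.11 to 0.48 for TRAF3, both lowest without MEC2 CpG replicate 2, and from 0.59 to 1.08 for TRAF4 and 0.55 to 0.99 for TRAF1.

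Between MEC2 and PCL12, where 0.00314% were called higher and 0.00941% lower, TRAF1 alone had a nominal P below 0.05 in edgeR, with a difference of 0.63 (interval 0.05 to 1.22; adjusted p = 1), where 1.36% of tested genes had such a P. TRAF4 differed by 0.39 (interval -0.19 to 0.96) and BIRC3 by 0.41 (interval -0.18 to 0.99). With 1 library left out, TRAF4 ran from 0.15 to 0.63, BIRC3 from -0.0054 to 0.68 and TRAF1 from 0.45 to 0.87, each lowest without MEC2 unstimulated replicate 2. Without PCL12 replicates 2 and 3 the differences were 0.68 for TRAF1, 0.19 for TRAF4 and 0.15 for BIRC3. Between PCL12 and HG3, 0 of 8 members had a nominal P below 0.05 in edgeR, against 2.39% of tested genes, with 0.0439% called higher and 0.0251% lower. A line in which a gene passed and a line in which it did not were therefore not shown to differ for any member.

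**Figure D3:**
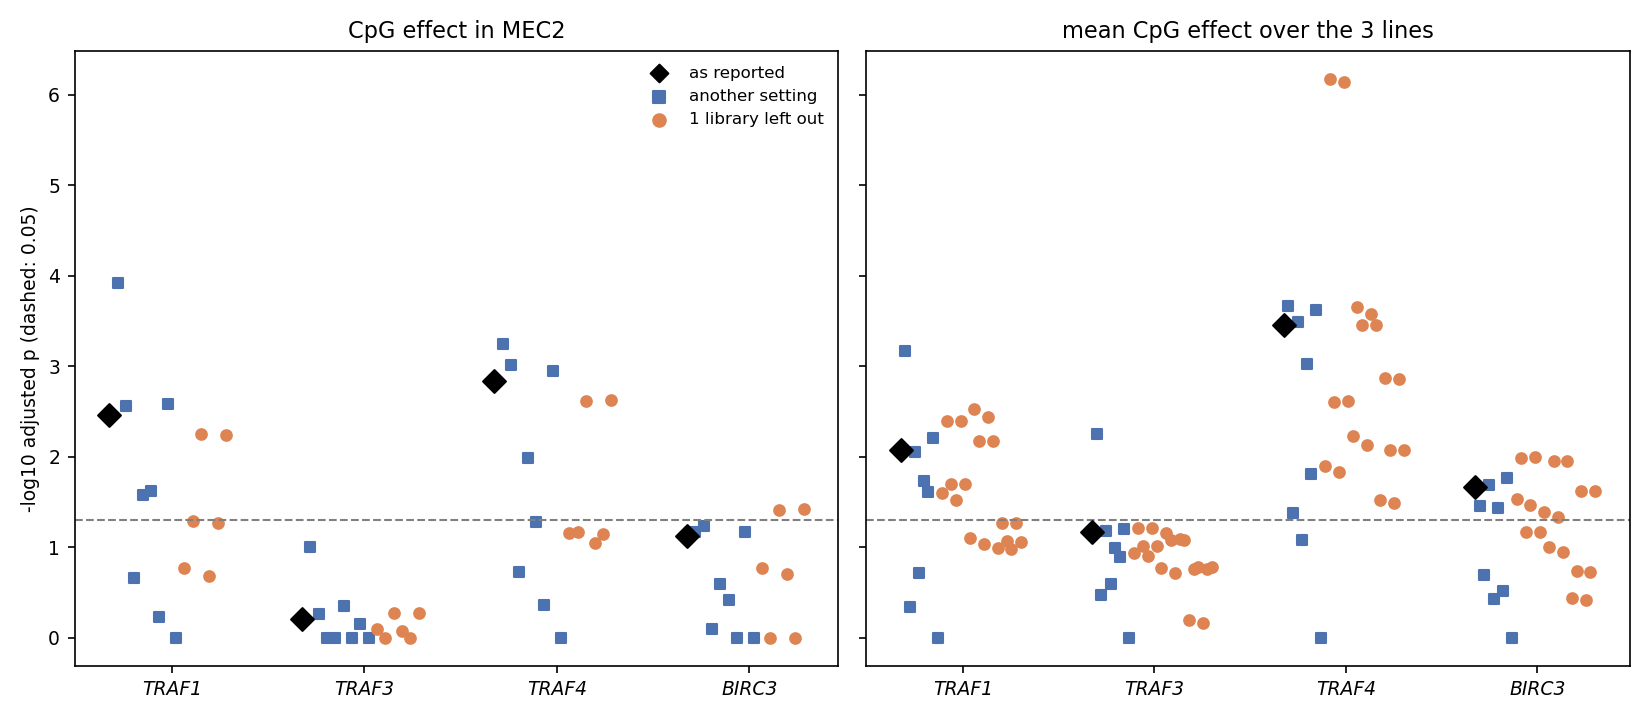
Negative log10 of the adjusted p (vertical axis) for TRAF1, TRAF3, TRAF4 and BIRC3 under each fit, for the CpG effect in MEC2 (left) and for the mean over the lines (right). Diamonds are the reported fit, squares other tools, scalings, filters or sample sets and circles fits with 1 library left out, with the dashed line at an adjusted p of 0.05. TRAF4 stays above the line in all circles of the right panel, whereas in MEC2 it falls below it in 4 of 6. Leaving out either library of a pair removes that pair, so that the circles are not all separate checks.

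To see how the lines differed before stimulation, the unstimulated libraries were compared between lines, without pairing. BIRC2 was the one member that differed, lower in MEC2 than in both other lines. It was at 70.4, 70.3 and 88.1 CPM in HG3, at 53.1, 55.1 and 47.0 CPM in PCL12 and at 31.0, 19.8 and 19.9 CPM in MEC2, 3 ranges that did not overlap. Such a separation was shown by 10.6% of tested genes for MEC2 below HG3, 9.75% for MEC2 below PCL12 and 9.36% for PCL12 below HG3. MEC2 was lower than HG3 by a log2 difference of -1.69 (SE 0.28; edgeR adjusted p = 0.000128), 0.309 times the HG3 level. This was 1 of 8 members, where 4.81% of tested genes were called higher and 4.97% lower. It passed in every other fit and with any single unstimulated library of these lines left out, with adjusted p of at most 0.00211 in the latter.

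MEC2 was also below PCL12 in BIRC2 by -1.13 (SE 0.28; edgeR adjusted p = 0.0252), 0.456 times its level, again 1 of 8 members, against 0.524% of tested genes called higher and 1.53% lower. This second call was lost in 4 of 6 fits with 1 library left out, at adjusted p of 0.172 and 0.126 without MEC2 replicate 2 or 3 and 0.0903 and 0.0826 without PCL12 replicate 1 or 2. Without PCL12 replicates 2 and 3 the difference was -1.20 (edgeR adjusted p = 0.105). PCL12 was below HG3 by -0.56 (SE 0.27; edgeR adjusted p = 0.232), so that these neighbours in the order were not told apart by the test, and in this comparison no member passed in edgeR, DESeq2 or limma-voom and 0 of 8 had a nominal P below 0.05 in edgeR, while 4.87% of tested genes were called higher, 4.57% lower and 21.8% had such a P. In bulk RNA a smaller number of cells expressing a gene and less RNA per cell cannot be told apart.

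With CpG the order of the BIRC2 means stayed MEC2 (29.6 ± 5.97 CPM, SD, n = 3), PCL12 (62.8 ± 22.1 CPM) and HG3 (72.7 ± 15.5 CPM). The neighbour BIRC3 did not follow this order. In unstimulated cells BIRC3 was at 382 ± 179.8 CPM in HG3, 325 ± 52.8 CPM in MEC2 and 256 ± 102 CPM in PCL12 (SD, n = 3 each), ranges that overlapped in all 3 comparisons.

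TRAF1 was lower in unstimulated MEC2 than in every unstimulated HG3 library, at 320.0 to 385 CPM against 419.7 to 1005 CPM, the separation that 10.6% of tested genes showed. The log2 difference of -0.92 (SE 0.37) did not pass in edgeR (adjusted p = 0.134), and it passed when genes with few counts were kept in the fit (adjusted p = 0.0120). Without HG3 unstimulated replicate 3 it was -0.49 (SE 0.37; edgeR adjusted p = 0.450). After CpG, TRAF1 in MEC2 (716 ± 232 CPM, SD, n = 3) lay within the spread of HG3 (745 ± 211 CPM) and PCL12 (602 ± 247 CPM). TRAF6 was higher in each unstimulated MEC2 library than in each of PCL12, at 17.4 to 20.7 CPM against 9.55 to 15.7 CPM, a separation upwards shown by 7.60% of tested genes, and the log2 difference of 0.56 (SE 0.40) did not pass (edgeR adjusted p = 0.635), nor did the 0.99 (SE 0.64) found without PCL12 replicates 2 and 3 (0.710).

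TRAF4 was ordered PCL12 (289.8 ± 100.5 CPM, SD, n = 3), HG3 (248 ± 29.9 CPM) and MEC2 (186 ± 29.7 CPM) in unstimulated cells. The distance between the ends of this order, -0.64 for MEC2 against PCL12 (SE 0.30), had a nominal P of 0.0388 and did not pass (edgeR adjusted p = 0.411), and it was -0.43 without PCL12 replicate 2. Without PCL12 replicates 2 and 3 it was -0.83 (SE 0.39; edgeR adjusted p = 0.473). TRAF2 was at 55.3 to 62.7 CPM as group means, TRAF3 at 191 to 213 CPM and TRAF5 at 41.8 to 47.3 CPM, and for these 3 genes the ranges of all lines overlapped.

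The other genes of the pathway were taken as 89 genes in 8 lists, and all 89 were tested. With CpG, 0 passed in HG3 in edgeR, and 9 of 89 had a nominal P below 0.05 (7 higher and 2 lower), against 3.59% of all tested genes. In MEC2 the genes that passed were 9 of 89, all higher, against 0.295% of all tested genes, and in PCL12 there was 1, also higher, against 0.0408%. Without the pairing nearly all calls of higher genes were lost in MEC2 and as the mean over the lines, as given under the processing. Most of these 9 calls, and of those given below for the mean, therefore depend on the pairing. The median log2 fold change over the 89 genes was 0.09 in HG3, 0.07 in MEC2 and 0.03 in PCL12, or 0.11 in PCL12 without replicates 2 and 3. Over all tested genes it was 0.00, 0.00 and 0.03.

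The list with the most called genes was that of NF-kB itself. Of 8 NF-kB subunit and inhibitor genes, 4 rose in MEC2, with a list median of 0.72, 1 in PCL12 (median 0.43) and 0 in HG3 (median 0.21). NFKBIZ, which encodes the nuclear inhibitor-like protein IkBz, rose by 2.17 (SE 0.21) on the log2 scale in MEC2 and by 1.70 (SE 0.21) in PCL12, where the single pair of replicate 1 gave 2.19, a value from 1 library in each state and so without a spread of its own. It went from 36.7, 24.2 and 24.5 CPM to 144, 160.1 and 87.2 CPM in MEC2, and NFKBIZ in HG3, where it started at 126, 93.0 and 225 CPM, reached 202, 206 and 293 CPM without passing. NFKB2, the precursor of p52 and the endpoint of the pathway that TRAF3 and the cIAPs restrain, rose by 1.01 (SE 0.21) in MEC2. NFKB2 did not pass in MEC2 without CpG replicate 2 (edgeR adjusted p = 0.140).

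Of the 14 receptors that signal through TRAFs, directly or through another adaptor, 3 rose in MEC2, namely TNFRSF18 (GITR) by 1.47 (SE 0.27), TNFRSF4 (OX40) by 1.60 (SE 0.34) and CD40 by 0.88 (SE 0.21), on the log2 scale. OX40 was low, at 4.10, 4.04 and 0.855 CPM unstimulated and 7.39, 15.7 and 3.62 CPM stimulated in MEC2 for TNFRSF4. Without MEC2 CpG replicate 2, TNFRSF18 had a log2 fold change of 0.89 (edgeR adjusted p = 0.580) and TNFRSF4 of 1.40 (0.101). Of 13 kinases and partner subunits of kinases below the TRAFs, 2 rose in MEC2, MAP3K8, the kinase Tpl2, by 0.96 (SE 0.21) and IKBKE by 0.85 (SE 0.22), whereas MAP3K14, which encodes NIK, had a log2 fold change of -0.14 (SE 0.21). Without MEC2 CpG replicate 2, IKBKE had a log2 fold change of 0.43 (edgeR adjusted p = 1). With 1 MEC2 library left out each, NFKBIZ passed in 6 of 6 fits, TNFRSF18 and MAP3K8 in 4, and NFKB2, TNFRSF4, CD40 and IKBKE in 2, with edgeR adjusted p of up to 0.58 for TNFRSF18, 0.091 for MAP3K8, 0.14 for NFKB2, 0.12 for TNFRSF4 and 0.24 for CD40. Those lost were the fits without replicate 1 of either state for MAP3K8, replicate 2 for TNFRSF18, replicate 1 or 2 for NFKB2, CD40 and IKBKE, and replicate 2 or 3 for TNFRSF4.

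As the mean over the lines, 10 of 89 rose (0.417% of all tested genes) and 0 fell, or 3 and 0 without PCL12 replicates 2 and 3, and those with the smallest P values were NFKBIZ (1.53), MAP3K8 (0.71), REL (0.59), RELB (0.54) and CD40 (0.51), each with an SE of 0.12. In the remaining lists 1 of 12 deubiquitinases and brakes and 1 of 7 death-pathway partners rose as the mean over the lines, TNFAIP3 and CFLAR. With 1 of the 18 libraries left out, TNFAIP3 passed in 8 of 18 fits (edgeR adjusted p of up to 0.31), CFLAR in 9 (0.29), CD40 in 13 (0.13), REL and RELB in 16 (0.063 and 0.065) and NFKBIZ and MAP3K8 in 18. None of the 15 tested adaptors and TRAF-interacting proteins, 12 ubiquitin ligases and conjugating enzymes and 8 other IAPs and IAP antagonists passed in edgeR, in MEC2 or as the mean over the lines. At a nominal P below 0.05 in edgeR these lists held 0, 0 and 1 genes higher and 0, 0 and 1 lower in MEC2, against 3.41% of all tested genes in either direction. With filterByExpr, NFKBIZ passed in MEC2 and in PCL12, and NFKB2, TNFRSF18, TNFRSF4, MAP3K8, CD40 and IKBKE did not pass in MEC2. Of the mean effects, those of NFKBIZ and MAP3K8 passed with filterByExpr, and REL (adjusted p = 0.350), RELB (0.0605), CD40 (0.0876), TNFAIP3 (0.222) and CFLAR (0.268) did not.

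**Figure D4:**
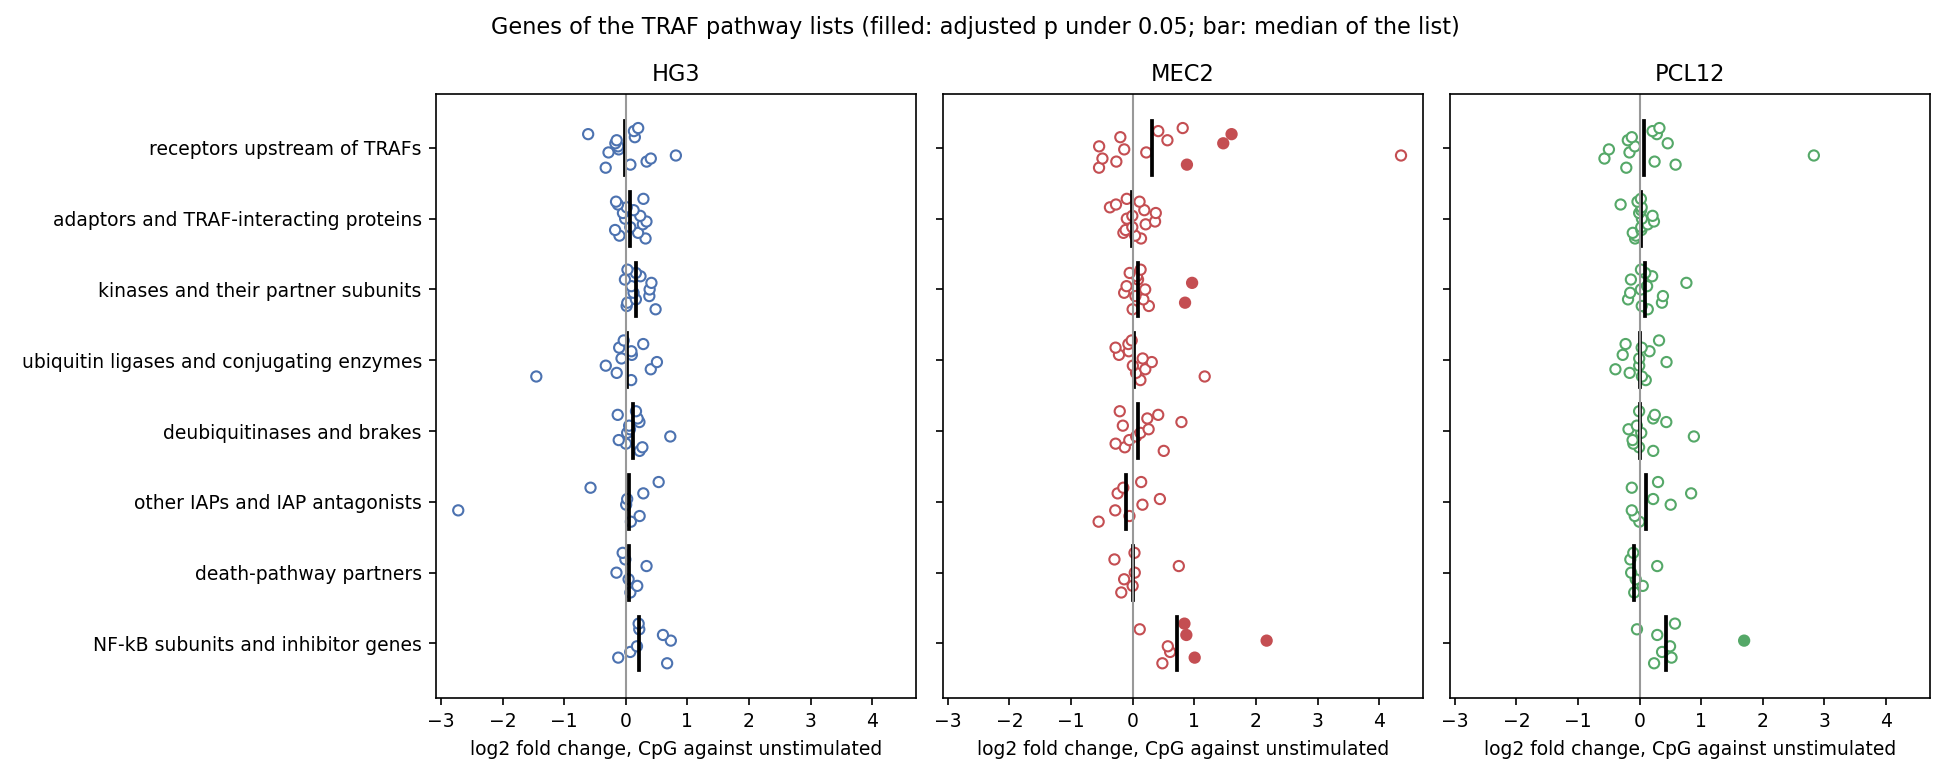
Log2 fold change with CpG (horizontal axis) of the 89 pathway genes by list in HG3, MEC2 and PCL12. Each circle is a gene, filled where the adjusted p was below 0.05, and black bars are list medians. The filled circles are 9 in MEC2 and 1 in PCL12, most of them NF-kB genes and receptors, and the open circle farthest to the right in MEC2 and PCL12 is TLR9, with at most 10 counts per library.

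In unstimulated cells, 7 of the 89 genes were higher and 12 lower in MEC2 than in HG3, 7 higher and 10 lower in PCL12 than in HG3, and 0 higher and 4 lower in MEC2 than in PCL12. Over all tested genes 4.81% were higher and 4.97% lower in the first comparison, 4.87% and 4.57% in the second, and 0.524% and 1.53% in the third. Without PCL12 replicates 2 and 3 the second comparison held 3 higher and 5 lower and the third 0 higher and 2 lower of the 89. CD27, a receptor that binds TRAF2, was higher than in HG3 by 2.09 (SE 0.32) in MEC2 and by 2.41 (SE 0.32) in PCL12 on the log2 scale, or by 2.94 (SE 0.41) in PCL12 without replicates 2 and 3. IL1R1, the IL-1 receptor chain whose signal passes through TRAF6, was at 64.6 to 242 CPM in HG3, 1.12 to 2.94 CPM in MEC2 and 1.83 to 4.22 CPM in PCL12. TNFRSF1A, the TNF receptor that recruits TRAF2 through TRADD, differed by -2.85 (SE 0.38) on the log2 scale between MEC2 and HG3. Of the 8 NF-kB genes, 4 were lower in MEC2 than in HG3 and 2 lower in PCL12 than in HG3, with list medians of -0.96 and -0.71 against 0.00 over all tested genes, and without PCL12 replicates 2 and 3 the latter count was again 2, with a median of -0.75.

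Finally, the genes whose levels moved most like each member were listed, by Pearson correlation of log2 CPM over the 18 libraries after the mean of each line was removed, among the 10658 genes whose mean level reached 5 CPM. The points share the CpG effect, the replicate pairs and the depth of each library, so that the coefficients are descriptions. TRAF1 was closest to ICAM1 (r = 0.97), GPR132 (0.96) and STAT5A (0.95). TRAF4 was closest to PIM1 (0.95), NFKB2 (0.93) and PTP4A3 (0.93), and TRAF3 to MIR3142HG (0.94), KDM2B (0.94) and CREB1 (0.94). For BIRC3 these genes were LYST (0.93), FEM1C (0.93) and IQSEC1 (0.92), and for BIRC2 they were SLC41A2 (0.92), SLC25A16 (0.89) and SEMA6A (0.88).

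TRAF6 was closest to KLHL20 (0.94), ZFP91 (0.93) and LNPEP (0.93). The lowest coefficients were those of TRAF2, with COMTD1 (0.81), NME3 (0.79) and FAM173A (0.78), and of TRAF5, with MFSD6L (0.81), ZNF350 (0.79) and RABEP2 (0.79). Among the members, TRAF1 and TRAF3 had r = 0.85, TRAF3 and TRAF4 0.80, TRAF1 and TRAF4 0.77, TRAF3 and BIRC3 0.77 and TRAF1 and BIRC3 0.76, while TRAF4 and BIRC3 had 0.41. BIRC2 had r = 0.73 with TRAF1, 0.68 with TRAF4, 0.64 with TRAF3 and 0.51 with BIRC3. TRAF6 had 0.65 with BIRC3, 0.59 with TRAF3, 0.48 with TRAF1 and -0.61 with TRAF2. In HG3 unstimulated replicate 2, the library with 20.2% mitochondrial counts, TRAF6 was at its lowest HG3 level (5.06 CPM), as were TRAF1, TRAF3 and BIRC3. TRAF2 was at its highest HG3 level there (69.7 CPM), and the part of this library in the coefficients was not tested.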

How the data were processed

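The deposited values are raw counts per gene, made by the authors from single-end reads that, per the labels and the submitters' processing notes, were trimmed with Trimmomatic, aligned to hg38 with STAR and counted with featureCounts. Libraries were stranded (reverse) per the study's methods. The annotation, the strand option of the counting and the treatment of duplicates are not given in the sources used here. The labels name a Lexogen 3′-tag library kit, and levels were not compared between genes. Counts ranged from 20382943 to 67308932 per library, which gives a floor (3 counts) of 0.0429 to 0.155 CPM, for counting error only.

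Genes whose counts over all libraries together reached 10 were TMM-scaled and fitted with edgeR 4.0.16 (R 4.3.3), quasi-likelihood test, on all 18 libraries. CpG effects were fitted with a term per line and replicate number, since the series describes each replicate series as 1 stimulated and 1 unstimulated sample. Deviations of same-numbered samples correlated at 0.085 to 0.73. In MEC2 replicates 1 and 2 did so at 0.306 and 0.0853, below CpG 1 with unstimulated 2 (0.487) and CpG 2 with unstimulated 1 (0.443), so that the pairing there comes from the series' description and not from the data. Unstimulated levels were fitted with 1 mean per group. P values were adjusted with Benjamini-Hochberg over all tested genes, and passing means an adjusted p under 0.05. Intervals are 95%, taken from the SE on a normal scale. In the CpG fit every member was given the common spread, so that its SE and interval do not reflect the spread of its own replicates. The SE of TRAF6 in HG3 was 0.28 in that fit, 0.39 with filterByExpr and 0.51 with HG3 alone. Scripts were tested on simulated data.

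The members and the pathway lists were chosen with earlier results of these data known. All members were named. Of the pathway lists, up to 5 genes per direction with the smallest P were named for a CpG comparison and up to 3 for unstimulated levels. For each member the 3 genes with the highest correlation were named. TLR9, IKBKE, MAP3K14, TNFAIP3 and CFLAR were named after their values were seen. Alternatives were DESeq2 1.42.0, limma-voom (limma 3.58.1), other scalings and filters, each line alone, no pairing, PCL12 replicates 2 and 3 left out, and each library left out.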

Additional observations from a re-analysis of the deposited data

Results flagged for a closer look

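The CpG effect differed between MEC2 and HG3 by the test of the difference itself for 3 of 89 pathway genes, all with the larger effect in MEC2, and for 0 of 8 members, where 0.0879% of all tested genes were called higher and 0.0533% lower. The differences, MEC2 minus HG3 on the log2 scale in edgeR with the pairing, were 1.44 for NFKBIZ (adjusted p = 0.00193), 1.64 for TNFRSF18 (adjusted p = 0.00559) and 2.21 for TNFRSF4 (adjusted p = 0.00479). All 3 genes were higher with CpG in 3 of 3 MEC2 pairs. With filterByExpr the adjusted p values were 0.415, 0.965 and 0.415, and without MEC2 CpG replicate 2 they were 0.0221, 0.666 and 0.0325. With 1 library left out each, NFKBIZ passed in 10 of 12 fits, failing without HG3 CpG replicate 3 (0.0732) or HG3 unstimulated replicate 3 (0.0736). TNFRSF18 passed in 10 of 12, failing without replicate 2 of either MEC2 group (log2 differences of 1.04 and 1.06, adjusted p of 0.666 and 0.595), and TNFRSF4 in 8 of 12, failing without replicate 3 of either HG3 group (0.0962 and 0.104) or either MEC2 group (0.0681 and 0.0633). The groups have 3 samples each, too few for a test of single outlying libraries.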

How the results depend on the processing

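With the replicate pairing, 2 members were higher with CpG in MEC2. This count was 0 with filterByExpr, 0 in MEC2 alone, 1 with limma-voom (TRAF1) and 0 with no replicate block, and 0 to 3 with 1 library left out. In PCL12 it was 1 (TRAF4) instead of 0 when that line was fitted alone. As the mean over the lines, 3 members became 0 with filterByExpr, 0 with no replicate block, 1 without PCL12 replicates 2 and 3, and 1 to 3 with 1 library left out. Without the replicate block the number of all genes called higher fell from 94 to 1 in MEC2 and from 133 to 3 as the mean. With 1 library left out it lay between 40 and 102 in MEC2, 47 and 148 as the mean, 28 and 53 in HG3, and 3 and 30 in PCL12, and the number called lower ran from 8 to 41 in MEC2, 19 to 55 as the mean, 10 to 47 in HG3 and 3 to 13 in PCL12. For unstimulated MEC2 against PCL12 it ran from 53 to 188 higher and 263 to 468 lower. The number called higher was 5 and 16 with filterByExpr, 8 and 26 with limma-voom and 3 in MEC2 alone. The number called lower, 12 in MEC2 and 44 as the mean, was 0 and 3 with filterByExpr, 0 and 1 with limma-voom, and as the mean 18 with DESeq2 and 25 without PCL12 replicates 2 and 3. HG3 had 20 genes higher and 23 lower, against 1 and 1 with DESeq2 and 0 and 0 with filterByExpr or limma-voom. PCL12 had 13 higher, against 57 when fitted alone, 26 from replicate 1 and 2 with filterByExpr. For the unstimulated comparison of MEC2 with PCL12, 167 higher and 487 lower became 486 and 925 with DESeq2. The prior degrees of freedom of the pairing fit were infinite with all tested genes and 9.1 with filterByExpr, and beyond that the cause was not tested.

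Of unstimulated levels, the 1 member lower in MEC2 than in HG3 became 2 with no filter (TRAF1 added), and the 1 lower than in PCL12 became 0 without PCL12 replicates 2 and 3 and 0 to 1 with 1 library left out. A block by replicate number across the lines changed no member's call in unstimulated levels.

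Members that did not pass changed sign in some fits. TRAF5 in HG3 (-0.01) was 0.0077 with filterByExpr, 0.057 with library totals, 0.00048 with limma-voom, 0.020 in HG3 alone and 0.0016 with no filter, and TRAF5 in MEC2 (0.00) was 0.016 with no filter and 0.0028 with no replicate block. TRAF2 in HG3 (-0.03) was 0.028 with library totals. With 1 library left out, the log2 ranges in HG3 were -0.13 to 0.0059 for BIRC2, -0.23 to 0.24 for TRAF2, -0.056 to 0.090 for TRAF5 and -0.48 to 0.86 for TRAF6. In MEC2 they were -0.043 to 0.22 for TRAF2, -0.24 to 0.19 for TRAF5 and -0.21 to 0.079 for TRAF6. In PCL12 they were -0.012 to 0.27 for TRAF2 and -0.0049 to 0.53 for TRAF6. The mean over the lines ran from -0.013 to 0.14 for TRAF2 and from -0.10 to 0.35 for TRAF6, and the BIRC3 difference between MEC2 and PCL12 from -0.0054 to 0.68. For a single gene, an exact permutation test cannot go below p = 0.1 with 3 libraries against 3, or below 0.25 with the 3 pairs of 1 line.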
